A study of Mus musculus with 8 samples.

Results

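The data described here are the peaks of H3K27me3, the trimethyl mark on lysine 27 of histone H3, that lie on mouse chromosome 10. They number 21873 of the 208616 peaks in the 5 deposited lists. By library these were 3981 of 34021 peaks in AstroEGFR 1, 109 of 3722 in AstroEGFR 3, 5993 of 64504 in PT 1, 5993 of 40090 in PT 3 and 5797 of 66279 in PT 4. Members were selected by chromosome name alone, but the chromosome itself was chosen from the share of peaks it held in earlier results on these lists. Its density, and the scores, widths and sharing that come with it, are therefore given beside the other autosomes as a description with no test.

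The study compared 2 stages of gliomagenesis. AstroEGFR cells (n = 2, replicates 1 and 3) were cortical astrocytes from C57BL/6 mice at postnatal day 5, null for the p16/p19 (Ink4a/Arf) locus, in which a retroviral vector overexpressed human EGFRvIII, a constitutively active form of the epidermal growth factor receptor. PT cells (n = 3, replicates 1, 3 and 4) were glioma propagating cells grown from tumours that arose after C57BL/6 cells of that kind had been transplanted into CD1 Nude mice, so both groups shared the deletion and the receptor. All were used below passage 10. Per the methods of the study, astrocytes were kept in serum and glioma propagating cells in serum-free medium with growth factors, so stage and medium cannot be told apart.

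H3K27me3 is written by Polycomb repressive complex 2, whose catalytic subunit is usually EZH2, and is bound by canonical Polycomb repressive complex 1. In neural cells it covers the CpG-rich promoters of silent developmental regulators, and over the most strongly repressed loci it spreads into domains of many kilobases. Mouse chromosome 10 carries several regulators known in this tissue, among them Olig3 and Sim1, which specify neuronal subtypes, Nr2e1, a nuclear receptor of neural stem cells, and Gli1, an effector of Hedgehog signalling. Peaks were not assigned to these or other genes, since gene positions of the build of the lists (mm9, per the processing notes of the submitters) were not used here.

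Several properties of whole lists bear on what follows. Read numbers are unknown for all 5 lists, and AstroEGFR 3 was by far the shortest. Unplaced sequences carried 179 to 236 peaks in AstroEGFR 1, PT 1 and PT 4 but 0 in AstroEGFR 3 and PT 3, so the lists form 2 sets that each contain both stages. A missing peak means that the signal fell short of the peak caller's threshold, and does not show that the mark was absent. The lists hold no expression values, so the identity of the cells could not be checked on markers.

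Chromosome 10 was densely marked in 4 of the 5 libraries. AstroEGFR 1 had 31.7 peaks per Mb of its span, against 13.1 on the other 18 autosomes pooled (a ratio of 2.42). PT 1 had 47.7 against 25.5 (1.87), PT 3 had 47.7 against 15.0 (3.19) and PT 4 had 46.2 against 26.4 (1.75). AstroEGFR 3 went the other way, with 0.868 against 1.55 (0.559). The density of chromosome 10 was thus nearly equal in the 3 PT libraries, while that of the other autosomes was lower in PT 3 than in PT 1 and PT 4.

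Among the 19 autosomes, chromosome 10 ranked first in peak density in AstroEGFR 1, PT 1 and PT 3, second in PT 4 and 15 in AstroEGFR 3. The distance to the nearest other autosome differed between libraries. In PT 3 the next was chromosome 9 with 23.2 peaks per Mb, and in AstroEGFR 1 it was chromosome 11 with 21.2. In PT 1 chromosome 11 reached 45.3, close to chromosome 10, and in PT 4 it exceeded it with 48.0. Peaks covered 5.42% of the span of chromosome 10 in AstroEGFR 1 and 0.0745% in AstroEGFR 3, while PT 1, PT 3 and PT 4 had 7.01%, 5.33% and 6.02%. The pooled values for the other autosomes were 1.89%, 0.142%, 3.45%, 1.42% and 3.36% in the same order. Merged over all lists, regions with a peak covered 12.1% of chromosome 10 and 5.57% of the other autosomes.

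**Figure D1:**
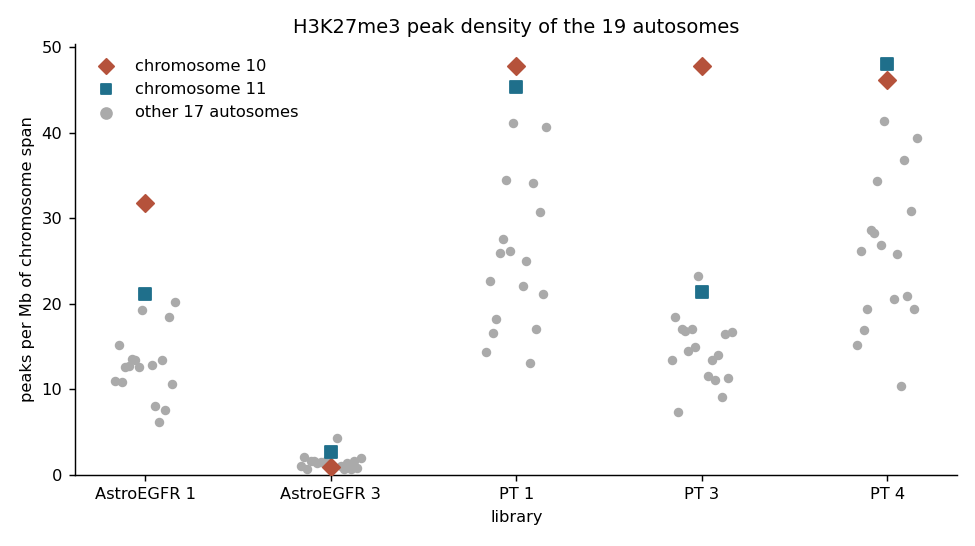
Peaks per Mb of chromosome span (y axis) for each of the 19 autosomes in the 5 libraries (x axis); the diamond is chromosome 10, the square chromosome 11 and each grey point another autosome. Chromosome 10 stands at 47.7 in PT 1 and PT 3 and 46.2 in PT 4, well above the next autosome in PT 3 (23.2) but not in PT 1 (45.3), and at 0.868 in AstroEGFR 3.

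PT 1 and PT 3 held the same number of peaks on chromosome 10, but not the same peaks. No pair of lists had a peak with identical start and end on the chromosome. Of the 5993 peaks of PT 1, 2480 shared at least 1 bp with a peak of PT 3, and of the 5993 of PT 3, 2897 shared bases with a peak of PT 1.

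To follow the mark along the chromosome, peaks were counted in 126 bins of 1 Mb by their midpoint. The median bin held 25 peaks in AstroEGFR 1 and 0 in AstroEGFR 3, and those of PT 1, PT 3 and PT 4 held 33.5, 32.5 and 36.5. The 2288 bins of the other autosomes had medians of 4, 0, 11, 6 and 11 peaks. The higher density of the 4 longer lists was thus seen in the median bin as well as in the crowded ones. The fullest 13 bins held 33.6% of the peaks of chromosome 10 in AstroEGFR 1, and between 30.1% and 33.4% in the PT lists. On the other autosomes an equal proportion of bins held more, from 40.3% to 47.4% in those 4 lists. In AstroEGFR 3 the 13 fullest bins held 68.8% of its 109 peaks, against 63.8% elsewhere.

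A bin was counted as high when it held more peaks than the 90th percentile of the bins on the other autosomes in the same list. AstroEGFR 1 had 44 high bins on chromosome 10 (34.9%, against 11.1% of all autosomal bins). PT 1 had 37 (29.4%, against 10.8%), PT 3 had 55 (43.7%, against 11.5%) and PT 4 had 27 (21.4%, against 10.4%). AstroEGFR 3 had 7 (5.56%, against 8.33%). Chromosome 11 had 21.0%, 24.4%, 16.0% and 27.7% high bins in AstroEGFR 1, PT 1, PT 3 and PT 4, so its share exceeded that of chromosome 10 in PT 4.

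The crowded bins recurred between libraries. The 3 fullest bins of each list came from 8 positions, and 7 bins belonged to the fullest 13 of all 4 longer lists. The bin chr10:94000001-95000000 held 135 peaks in AstroEGFR 1 and 2 in AstroEGFR 3, and 179, 191 and 172 in PT 1, PT 3 and PT 4. It was the fullest bin of AstroEGFR 1 and PT 1. The fullest bin of PT 3 and PT 4, chr10:43000001-44000000, held 104, 1, 167, 204 and 190 peaks in the same order of libraries. Peaks covered 30.1% of that bin in PT 3 and 17.99% in AstroEGFR 1. The bin chr10:60000001-61000000 was the fullest of AstroEGFR 3, with 10 peaks, and held 119 in AstroEGFR 1 and 103 to 165 in the PT lists.

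The neighbouring bin chr10:61000001-62000000 held 107 peaks in AstroEGFR 1 and 8 in AstroEGFR 3, and 122, 200 and 156 in PT 1, PT 3 and PT 4. The bin chr10:79000001-80000000 had the highest covered share of PT 1 among the 7 shared bins, 37.3%, with 117 peaks in that library and 9 in AstroEGFR 3. In chr10:77000001-78000000, 180 peaks of PT 4 covered 33.4% of the sequence. All 7 shared bins also held at least 1 peak of AstroEGFR 3, 30 of its 109 in all. In chr10:19000001-20000000, which was among the 3 fullest of PT 1, the PT libraries held 159, 115 and 152 peaks, AstroEGFR 1 held 56 and AstroEGFR 3 held 7. The remaining position, chr10:75000001-76000000, held 124 peaks in AstroEGFR 1 and between 130 and 140 in each PT library.

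**Figure D2:**
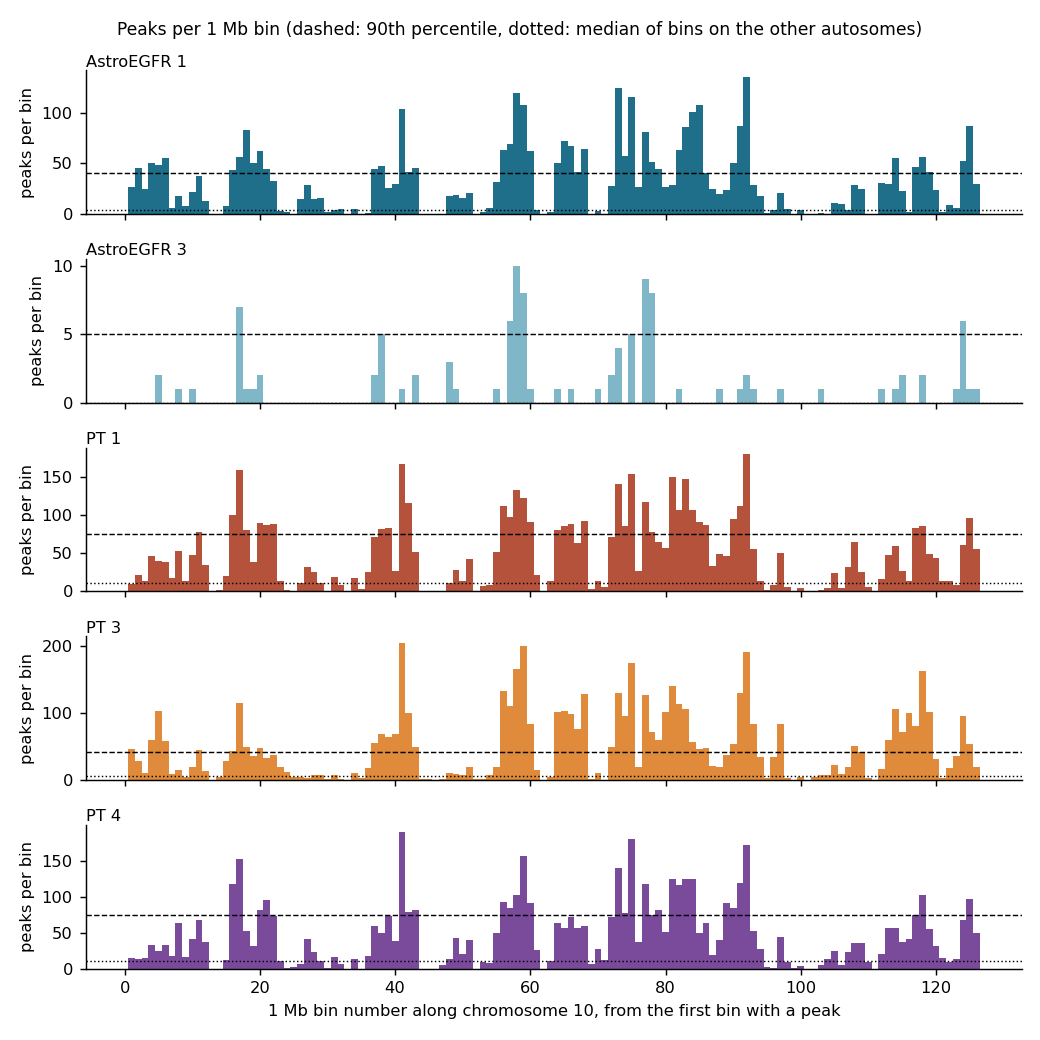
Number of peaks (y axis, a separate scale for each library) in each of 126 consecutive 1 Mb bins of chromosome 10 (x axis, numbered from the first bin with a peak); the dashed line is the 90th percentile and the dotted line the median of the bins on the other autosomes. Several crowded bins recur in the 4 longer lists, with maxima of 135, 179, 204 and 190 peaks, but the lists part in others, as in bin 116 with 100 peaks in PT 3 and 2 in AstroEGFR 1; AstroEGFR 3 reaches 10.

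Gaps were shared as well. The longest stretch without a peak was 4.53 Mb in AstroEGFR 1 (chr10:45753595-50280362), and those of PT 1 (3.73 Mb), PT 3 (2.40 Mb) and PT 4 (3.44 Mb) lay within it. In AstroEGFR 3 it was 16.8 Mb (chr10:22541192-39312761). Counted in bins, the longest empty run was 4 in AstroEGFR 1, 16 in AstroEGFR 3, 3 in both PT 1 and PT 4, and 1 in PT 3. Of the 126 bins, 5 had no peak in any list, 106 had one in all 4 longer lists and 41 in all 5. Across bins, Spearman's rho of peak number was 0.96 between PT 1 and PT 4, 0.88 between PT 1 and PT 3, 0.86 between PT 3 and PT 4, 0.92 between AstroEGFR 1 and PT 1, 0.88 with PT 4 and 0.87 with PT 3 (126 bins each, which share their sequence and its mappability). For pairs with AstroEGFR 3 it was 0.48 to 0.53. The medians of the other autosomes were close for the first 6 pairs, from 0.82 to 0.95, and higher for those with AstroEGFR 3, from 0.64 to 0.70.

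Density was next taken in 13 windows of 10 Mb and divided by the mean density of the other autosomes in the same list. The ratio exceeded 1 in 11 of 13 windows in AstroEGFR 1 (41% of all autosomal windows), in 11 in PT 1 (43%), in 11 in PT 3 (41.8%) and in 10 in PT 4 (41.4%). In AstroEGFR 3 it did so in 2 windows (30.7% of all). The densest window was chr10:60000001-70000000 in PT 3, at 5.66 times the mean, and chr10:80000001-90000000 in AstroEGFR 1 (4.37), PT 1 (3.60) and PT 4 (3.14). In PT 3, 3 windows lay above the highest of the 231 windows on the other autosomes (4.50). The sparsest window in all 5 lists was chr10:100000001-110000000, with ratios of 0.267 in AstroEGFR 1 and 0.0644 in AstroEGFR 3, and of 0.306, 0.528 and 0.319 in PT 1, PT 3 and PT 4. Even on this chromosome, then, 10 Mb stretches below the mean of the other autosomes were present in every list.

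The excess of PT 3 over the other PT libraries was not even along the chromosome. When the ratio of peak numbers of PT 3 to PT 1 was divided by the same ratio on the other autosomes, it was 0.97, 0.96 and 1.05 in the 3 windows from 10 to 40 Mb, and 1.42 to 2.89 in the other 10. Against PT 4 the 3 windows gave 1.002, 1.11 and 1.32, and the others 1.57 to 3.63. The first window, up to 10 Mb, gave the highest value in both comparisons. There AstroEGFR 1 also stood out, with 256 peaks against 186, 315 and 153 in PT 1, PT 3 and PT 4, and 2 in AstroEGFR 3. PT 1 and PT 4 differed less, with relative ratios from 0.96 to 1.26 over the 13 windows. On the other autosomes, 80% of windows with at least 50 peaks in both lists lay between 0.626 and 1.77 for PT 3 over PT 1. Of the 13 windows of chromosome 10, 6 lay above that range. For PT 1 over PT 4 the range was 0.791 to 1.20, and 2 of the 13 windows lay above it.

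**Figure D3:**
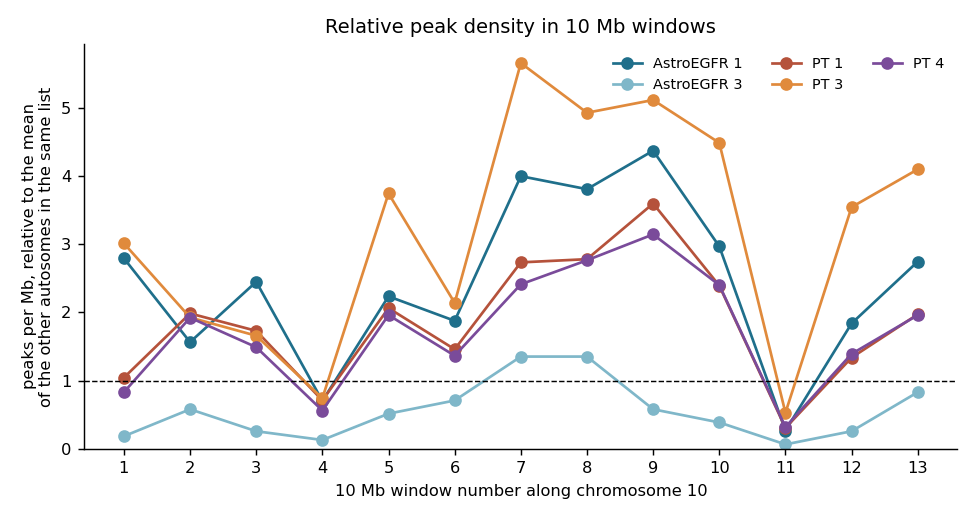
Peaks per Mb in the 13 consecutive windows of 10 Mb of chromosome 10 (x axis), divided by the mean of the other autosomes in the same list (y axis, dashed line at 1), with 1 line per library. PT 3 reaches 5.66 in window 7 and lies near PT 1 and PT 4 in windows 2 to 4, and all lists drop below 1 in windows 4 and 11.

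The peaks of chromosome 10 were also ranked by score, the value of the peak caller, as a percentile within each list. The median percentile was 56.5 in AstroEGFR 1 and 49.3 in AstroEGFR 3, and 53.2, 59.1 and 51.0 in PT 1, PT 3 and PT 4. Pooled over the other autosomes, the medians were 49.2, 49.1, 49.7, 48.5 and 49.9. Chromosome 10 ranked first of the 19 autosomes in AstroEGFR 1 and PT 3, second in PT 1, sixth in PT 4 and seventh in AstroEGFR 3. In AstroEGFR 1 and PT 3, then, chromosome 10 had both the highest density and the highest median percentile.

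The share of the chromosome rose with score in these libraries. Of the autosomal peaks of PT 3, 12.5% (Wilson 95% CI 11.9 to 13.2) in the weakest quartile of the list lay on chromosome 10, and 19.95% (CI 19.2 to 20.7) in the strongest. In AstroEGFR 1 the shares were 10.4% (CI 9.79 to 11.1) and 15.1% (CI 14.4 to 15.9), and in PT 1 they were 8.68% (CI 8.25 to 9.12) and 10.6% (CI 10.1 to 11.1). In PT 4 they were 8.42% (CI 8.005 to 8.85) and 9.21% (CI 8.78 to 9.66), intervals that overlap. AstroEGFR 3 had 3.12% (CI 2.18 to 4.45) and 2.74% (CI 1.85 to 4.04). The share of chromosome 11 also rose in PT 1 (8.04% to 9.55%) and PT 4 (8.13% to 9.81%). In AstroEGFR 1 it went from 6.98% to 7.69%, in PT 3 from 6.40% to 6.41% and in AstroEGFR 3 from 9.48% to 10.4%. A rise with score in PT 1 and PT 4 was thus not particular to chromosome 10. Among the top 5% of each list by score, chromosome 10 held 24.4% of the autosomal peaks in PT 3 and 19.7% in AstroEGFR 1, while PT 1, PT 4 and AstroEGFR 3 had 12.2%, 10.1% and 1.26%. In AstroEGFR 1, chromosome 17 held 8.15% of these peaks, against 5.04% of all autosomal peaks. A higher share among strong peaks was thus not particular to chromosome 10 in that list either. Chromosome 10 makes up 5.23% of the autosomal span. Adjacent peaks can belong to 1 domain, so these intervals express counting error alone.

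**Figure D4:**
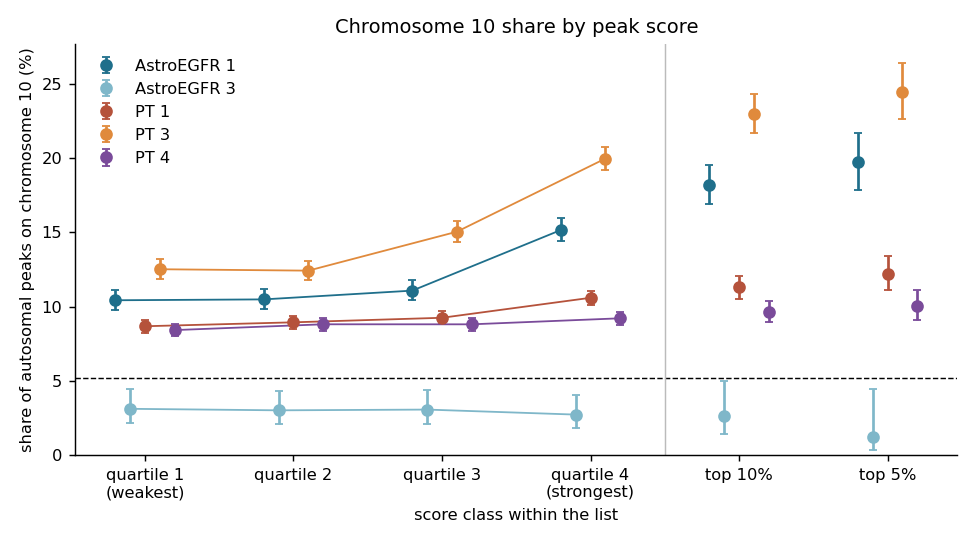
Share of autosomal peaks that lie on chromosome 10 (y axis, %) by score class within each list (x axis: 4 quartiles, joined by lines, and the top 10% and top 5%); points are libraries, error bars are Wilson 95% intervals and the dashed line is the 5.23% of autosomal span. The share climbs to 24.4% in PT 3 and 19.7% in AstroEGFR 1, and stays near 3% or lower in AstroEGFR 3.

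Along the chromosome, scores followed density only in part. The highest median percentile among the 10 Mb windows fell in chr10:70000001-80000000 in PT 1 (65.9), PT 3 (67.5) and PT 4 (64.9), and was 63.1 there in AstroEGFR 1, whose highest was 64.3 in chr10:120000001-130000000. The window with most peaks in PT 1, chr10:80000001-90000000, had a median of 55.9. In the first window, which was rich in peaks of AstroEGFR 1 and PT 3, the medians were 41.1 and 51.7. Scores of 3100 or more were given to 47 peaks of chromosome 10 in AstroEGFR 1, 24.6% of the 191 autosomal peaks with such scores. Chromosome 10 held 163 of 1170 (13.9%) in PT 1, 24 of 88 (27.3%) in PT 3 and 123 of 1078 (11.4%) in PT 4. AstroEGFR 3 had 17 such autosomal peaks but none on chromosome 10, where its strongest peak scored 1035.

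Peaks on chromosome 10 were somewhat wide. Median widths in AstroEGFR 1 and AstroEGFR 3 were 1106 and 797 bp, and in PT 1, PT 3 and PT 4 they were 849, 768 and 802 bp. In that order, these are 1.08, 1.04, 1.06, 1.14 and 1.01 times the pooled median of the other autosomes. Peaks of at least 5 kb made up 4.62% of those of AstroEGFR 1 (2.23% on the other autosomes), 4.07% of PT 1 (3.10%), 1.13% of PT 3 (0.594%) and 2.88% of PT 4 (2.55%). AstroEGFR 3 had 0 of 109, which allows a share of up to 2.75%. Peaks of at least 10 kb numbered 30 in AstroEGFR 1 (0.754%, against 0.423% on the other autosomes). PT 1 had 52 (0.868%, against 0.657%), PT 3 had 9 (0.150%, against 0.0970%) and PT 4 had 39 (0.673%, against 0.532%). By this share chromosome 10 ranked 2 of 19 in AstroEGFR 1 and 4 in each PT list. In the 4 longer lists neighbouring peaks lay close together, with a median gap of 1602 bp in AstroEGFR 1, and of 1394, 2383 and 1552 bp in PT 1, PT 3 and PT 4. In AstroEGFR 1 and PT 3 this was the shortest median gap of any autosome, whereas in PT 1 and PT 4 chromosome 10 ranked 11 of 19 from the longest. In AstroEGFR 3 the median gap was 200070 bp, the third longest of the 19.

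The widest peak of AstroEGFR 1 on the chromosome, chr10:50603760-50634215, spanned 30456 bp and ranked 5 by width among its autosomal peaks. The widest of PT 3, chr10:50607988-50631364 with 23377 bp, lay inside it and was the widest autosomal peak of that list. Peaks of PT 1 and PT 4 covered 97.6% and 98.4% of the AstroEGFR 1 interval, and those of AstroEGFR 3 covered 7.52%. This domain was thus present in both stages. The widest peak of PT 1 was chr10:80903865-80933168 (29304 bp), of which AstroEGFR 1 covered 97.6%, PT 3 84.6% and PT 4 97.9%. The widest of PT 4, chr10:79939923-79967330 (27408 bp), was covered to 97.9% by AstroEGFR 1, 99.8% by PT 1 and 91.5% by PT 3. The widest of AstroEGFR 3 was chr10:126516915-126518527, with 1613 bp. Each PT list covered it whole, and AstroEGFR 1 covered 67.4% of it.

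Sharing between lists was measured as the percentage of peaks that overlapped a peak of the other list by at least 1 bp. Recovery of chromosome 10 peaks in PT 3 and AstroEGFR 1 was higher than elsewhere for each of the other long lists, PT 3 in AstroEGFR 1 by the least (37.0%, against 33.3%). Of the chromosome 10 peaks of AstroEGFR 1, 46.2% were found in PT 3, against 32.6% of its peaks on the other autosomes. Of those of PT 1, 41.4% were found in PT 3 (23.8% on the other autosomes) and 46.5% in AstroEGFR 1 (33.6%). Of those of PT 4, 41.6% were found in PT 3 (23.2%), 48.1% in AstroEGFR 1 (32.8%) and 72.1% in PT 1 (64.5%). These 6 recoveries were the highest of the 19 autosomes, except that of PT 1 in AstroEGFR 1, which was the second highest. PT 3 and AstroEGFR 1 also covered more of chromosome 10 (5.33% and 5.42%) than of the other autosomes (1.42% and 1.89%). A 1 bp overlap is met more readily where the other list covers more, so recovery is not separate from density. The part of covered length in these recoveries was not tested.

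Among the 4 longer lists, recovery in PT 1 and PT 4 was otherwise below that of the other autosomes. Of the peaks of PT 3, 48.3% were found in PT 1 (51.2% on the other autosomes) and 44.1% in PT 4 (50.8%). AstroEGFR 1 peaks were found to 69.1% in PT 1 (70.3%) and to 63.4% in PT 4 (69.4%). Among the strongest quartile of PT 3, 62.7% of 1993 peaks on chromosome 10 had a counterpart in PT 4, against 69.96% elsewhere. Peaks of PT 3 that PT 4 did not hold thus included strong ones.

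The few peaks of AstroEGFR 3 were nearly all found elsewhere. Of the 109, 86 (78.9%, Wilson 95% CI 70.3 to 85.5) overlapped a peak of AstroEGFR 1, 97 (89.0%, CI 81.7 to 93.6) a peak of PT 1, 103 (94.5%, CI 88.5 to 97.5) a peak of PT 3 and 94 (86.2%, CI 78.5 to 91.5) a peak of PT 4. The shares on the other autosomes were 53.7%, 68.6%, 66.2% and 69.4%. Conversely, AstroEGFR 3 held a peak at 1.45% to 2.08% of the chromosome 10 peaks of the other 4 lists, the lowest recovery of the 19 autosomes in each. Over base pairs, the Jaccard index (bases in both lists divided by bases in either) on chromosome 10 was 0.544 for PT 1 with PT 4, 0.421 for AstroEGFR 1 with PT 1, 0.261 for PT 1 with PT 3 and 0.00972 for the AstroEGFR pair. On the other autosomes these were 0.502, 0.314, 0.174 and 0.0372. By this index chromosome 10 was above the rest for pairs of long lists and below it for pairs with AstroEGFR 3. The few peaks of AstroEGFR 3 keep the index low, so the latter does not show disagreement.

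**Figure D5:**
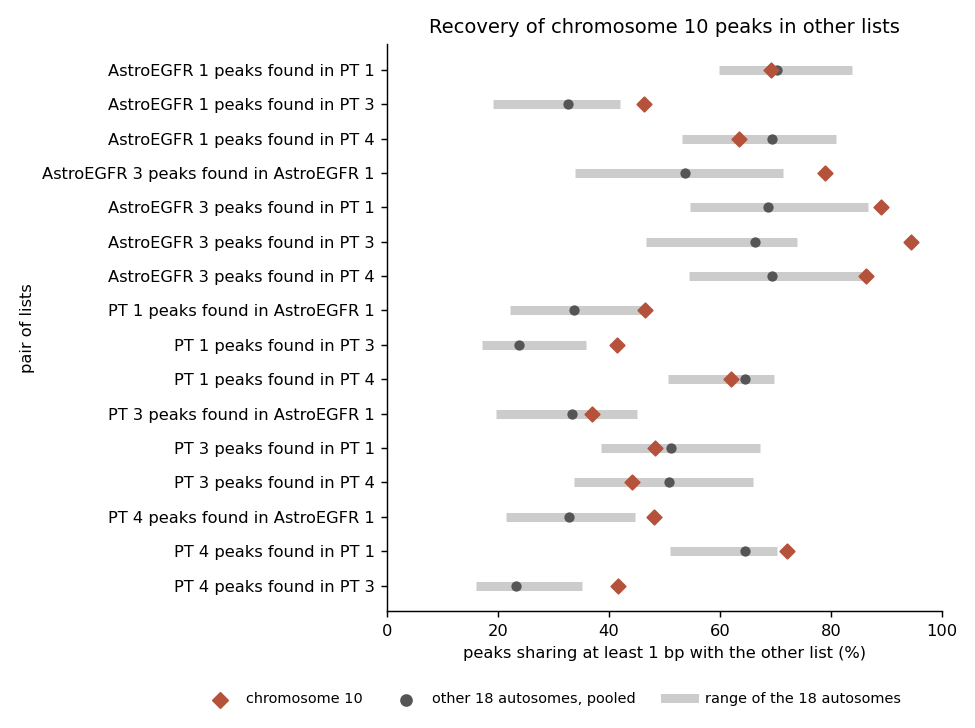
Percentage of the peaks of one list that share at least 1 bp with a peak of another list (x axis), for 16 ordered pairs of lists (y axis); diamonds are chromosome 10, dark points the other 18 autosomes pooled and grey bars the range of those autosomes. Chromosome 10 lies beyond the grey bar when peaks of PT 1, PT 4, AstroEGFR 1 or AstroEGFR 3 are looked for in PT 3 (41.4%, 41.6%, 46.2% and 94.5%). It also does so for PT 4 in AstroEGFR 1 (48.1%) and PT 1 (72.1%), and for AstroEGFR 3 in AstroEGFR 1 (78.9%) and PT 1 (89.0%). It lies inside the bar in the other pairs, among them PT 3 in AstroEGFR 1, PT 1 or PT 4.

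Merging the lists gave 9695 regions on chromosome 10, 9.80% of the 98945 autosomal regions. Of these, 5519 (56.9%) were marked in 1 list only, close to the 57.3% of the other autosomes. Regions marked in 4 lists were frequent, with 965 (9.95%, against 5.79% elsewhere), and 954 of them were marked in all lists but AstroEGFR 3. Regions marked in all 5 lists numbered 68, or 0.701% (1.32% of all autosomal regions), and had a median length of 8276 bp. All 3 PT lists marked 1481 regions, 15.3% (11.1% of all autosomal regions), the highest share of any autosome. Both AstroEGFR lists marked 71 (0.732%, against 1.69% elsewhere), the lowest share, but AstroEGFR 3 had only 109 peaks on the chromosome to share.

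The regions of single lists differed between the PT libraries. Those marked only in PT 3 numbered 2494, or 25.7% of the regions of chromosome 10 (15.7% of all autosomal regions), and chromosome 14 was next with 25.4%. Regions marked only in PT 4 numbered 1022 (10.5%, against 18.5% elsewhere) and those marked only in PT 1 1237 (12.8%, against 17.4%). The regions only in PT 3 made up 39.5% of all regions in chr10:110000001-120000000, 34.1% in the first 10 Mb and 15.3% in chr10:10000001-20000000. Combinations that joined AstroEGFR 1 and PT 3 were also frequent: 161 regions (1.66%, against 0.616% elsewhere) were marked in these 2 lists only, and 130 (1.34%, against 0.378%) in these and PT 1. The 3 strongest regions of PT 3 alone were chr10:116984816-116989035, chr10:94425567-94429778 and chr10:42739508-42742840, at percentiles 99.1, 98.9 and 98.7 of that list. They lay 4738, 1622 and 1876 bp from the nearest AstroEGFR peak.

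To ask which regions separated the stages, regions were called acquired when every PT list and no AstroEGFR list marked them, and lost regions were defined as those marked in both AstroEGFR and no PT list. Chromosome 10 had 450 acquired regions, 4.64% of its regions (3.78% of all autosomal regions), the third highest share of the 19 autosomes. It had 0 lost regions (0.0232% of all autosomal regions). Only the 71 regions marked in both AstroEGFR lists could be called lost, so the count says little about loss of the mark. Acquired regions had a median length of 1811 bp, and 1857 bp on the other autosomes. Their share was highest in chr10:40000001-50000000, with 61 (7.86%), and lowest in the first 10 Mb, with 8 (1.36%), although AstroEGFR 1 and PT 3 were dense there. Of the 450, 76 (16.9%) lay within 1 kb and 407 (90.4%) within 100 kb of an AstroEGFR peak. No such shares are given for other regions, and AstroEGFR 1 alone had 31.7 peaks per Mb here. These distances therefore do not set acquired regions apart. Taking the strongest peak within each acquired region, the median percentile on chromosome 10 was 67.1, 67.2 and 56.5 for PT 1, PT 3 and PT 4, against 67.9, 51.5 and 66.5 on the other autosomes, so PT 3 was higher and PT 4 lower on chromosome 10. These counts rested on single libraries: leaving out AstroEGFR 1 gave 1457 acquired regions, PT 3 gave 1323, PT 4 gave 775 and PT 1 gave 697. Leaving out AstroEGFR 3 gave 459 acquired regions and 764 lost ones. Absence from the AstroEGFR lists thus rested almost wholly on AstroEGFR 1. Acquired regions fell to 22 when all lists were reduced to equal numbers of peaks. They fell to 221 in the stronger 50% of peaks and to 266 at scores of at least 100. Regions marked in PT 1 and PT 3 and in neither AstroEGFR list, whatever PT 4 held, numbered 753.

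The 5 acquired regions with the highest ranks differed in length and in distance from astrocyte peaks. The first, chr10:84212512-84235637, spanned 23126 bp, of which PT 1, PT 3 and PT 4 marked 19478, 23095 and 19546 bp. Its best scores were 1911, 3100 and 2342 in the same order, and the nearest AstroEGFR peak lay 9259 bp away. The second, chr10:77825578-77833771, spanned 8194 bp and lay 2329 bp from an AstroEGFR peak. The third, chr10:74556532-74561167, was 65026 bp from any AstroEGFR peak and had best scores of 1441, 1000 and 1511 in PT 1, PT 3 and PT 4. The fourth, chr10:109631567-109635152, was the most remote of the 5, at 255830 bp, and lay in the sparsest window of the chromosome. The fifth, chr10:43813294-43818308, lay 1613 bp from an AstroEGFR peak in a crowded bin.

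The 5 regions that ranked highest in all 5 lists were mostly long domains in which AstroEGFR 3 marked a small part. The first, chr10:126511849-126531241, spanned 19393 bp, of which AstroEGFR 1 marked 16834 bp and AstroEGFR 3 2305 bp, while PT 1, PT 3 and PT 4 marked 18621, 10014 and 19147 bp. The second, chr10:79939817-79967330, spanned 27514 bp and was covered to 25072 bp or more in the 4 longer lists and 3355 bp in AstroEGFR 3. The fourth, chr10:50601935-50634215, was the domain that held the widest peaks of AstroEGFR 1 and PT 3, with 2290 bp marked in AstroEGFR 3. The fifth, chr10:79810380-79833526, lay close to the second and spanned 23147 bp, with 20019 to 21818 bp marked in the longer lists. The third was of another kind: chr10:21861676-21863294 was only 1619 bp long and was marked over 1226 to 1530 bp in all 5 lists. It had the strongest chromosome 10 peak of AstroEGFR 3, at percentile 98.6, and percentiles of 93.4 to 98.0 in the others.

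The stages were then set side by side with the library as the replicate. Chromosome 10 held 11.1% ± 3.41 (SD, n = 3) of the autosomal peaks in PT and 7.39% ± 6.21 (SD, n = 2) in AstroEGFR, a difference of 3.67 percentage points. Of the covered length it held 12.1% ± 4.42 (SD, n = 3) and 8.23% ± 7.68 (SD, n = 2), a difference of 3.83 points. The median score percentile was 54.4 ± 4.198 (SD, n = 3) in PT and 52.9 ± 5.05 (SD, n = 2) in AstroEGFR, and the median width relative to the other autosomes was 1.07 ± 0.0639 (SD, n = 3) and 1.06 ± 0.0259 (SD, n = 2). Each difference was smaller than the SD of both stages, except that in peak share, which was above the SD of PT and below that of AstroEGFR, and the ranges of the stages overlapped in all 4 measures. No p is given, because the chromosome was chosen from its peak share in these same libraries, and a permutation of 2 against 3 libraries cannot go below 0.1.

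The direction of the difference in peak share depended on which libraries were compared. Without AstroEGFR 3 it was -0.727 points. Tumours arose from astrocyte batches, but the sources used here do not say which PT library came from which AstroEGFR library. Between libraries of the same number, PT minus AstroEGFR was -2.41 points for number 1 and 11.98 points for number 3. Within the set that held unplaced peaks it was -2.69 points (PT 1 and PT 4 against AstroEGFR 1). The order of the 5 shares was PT 3 (15.0%), AstroEGFR 1 (11.8%), PT 1 (9.36%), PT 4 (8.81%) and AstroEGFR 3 (2.99%), so the stages interleaved. The parts of read depth, of the input and of the list set in this order were not tested.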

How the data were processed

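H3K27me3 was profiled by chromatin immunoprecipitation and sequencing in 5 libraries, and the 3 input libraries were not analysed here. Per the labels, the authors used Bowtie 0.12.9, MACS 1.4.1 and the mm9 build. The deposited lists give chromosome, start, end and a score per peak for each library separately. This score is the significance value MACS assigns to a peak, on a log scale. It depends on depth, which is unknown, and was used only as a percentile within a list. The input assigned to each library is not given in the sources used here.

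Positions were converted to count from 1. Spans run from the first to the last peak in any list. Peaks were placed in bins and windows by midpoint. Regions are the union of all autosomal peaks, with overlapping or adjoining peaks merged, and a list marked a region if at least 1 bp lay in one of its peaks. Stages were described by means and SDs over libraries. The planned exact permutation test is not reported, since the chromosome was chosen from these libraries. The members, the measures and the rules for named regions were chosen with earlier results of these data known: the 5 acquired regions and the 5 regions in all lists with the highest lowest percentile, the 3 strongest regions of PT 3 alone, the widest peak and the 3 fullest bins of each list and its longest gap. The study describes its AstroEGFR replicates as independent astrocyte batches and PT as tumours derived from such batches. The comparisons within sets of lists were added after seeing the data. A planned list of developmental and signalling genes of the chromosome was not examined, since positions on this build were not used here. The overlap functions were checked on simulated lists with 6000 planted regions, of which 100% were put in their class. Python 3.11.15, numpy 2.4.6, pandas 2.3.3, scipy 1.17.1 and matplotlib 3.10.9 were used.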

Additional observations from a re-analysis of the deposited data

How the results depend on the processing

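Of 93 values recomputed under alternatives, 62 were called unchanged. Differences had to keep their direction, and counts to stay within 1.5 times. Percentages of high bins had to stay inside the counting interval of the main value. The PT minus AstroEGFR difference in the share of autosomal peaks on chromosome 10 (3.67 points) ranged from -0.727 to 8.06 points when each library was left out, and was -2.69 in the set of AstroEGFR 1, PT 1 and PT 4. That in covered length (3.83 points) ranged from -1.59 to 9.26 and was -4.13 within that set. That in median score percentile (1.53) ranged from -2.05 to 5.10 and was -4.39 within that set. That in relative width (0.00693) ranged from -0.0279 to 0.0349, was -0.0462 within that set, and reversed to -0.00259 among the stronger 50% of peaks and to -0.0321 with equal numbers of peaks. Leaving out AstroEGFR 3 reversed all 4, and leaving out PT 3 reversed the last 2 (-0.814 for the percentile).

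Acquired regions (450) numbered 221 among the stronger 50% of peaks, 266 with a score of at least 100, 22 with equal numbers of peaks, 298 with gaps of up to 1000 bp merged, 1333 in that set and 5894 in the set of AstroEGFR 3 and PT 3, and 459 to 1457 with each library left out. Lost regions (0) numbered 4 with equal numbers of peaks, 964 and 6 within the 2 sets, and 0 to 764 with each library left out. Stricter lists hold fewer peaks, and leaving out a library relaxes both definitions. The percentage of high bins moved beyond its counting interval with 0.5 Mb bins in PT 1 (21.8%) and with 2 Mb bins in AstroEGFR 3 (1.56%).

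Replicate numbers 1 and 3 occur in both stages. As a replicate block over these 2 pairs, the differences were 4.78 points of peaks, 5.37 points of covered length, 3.24 in percentile and 0.0349 in relative width, with 753 regions acquired and 0 lost in both pairs. The 4 differences equal by construction those without PT 4. Deviations of the 19 autosomal shares from the group mean had r = -0.40 between AstroEGFR 1 and PT 1 and -0.45 between AstroEGFR 3 and PT 3, but with 2 AstroEGFR libraries these deviations mirror each other, so the check cannot decide whether the numbers pair the libraries. With depth unknown, statements that rest on a missing peak, above all in AstroEGFR 3, are limited by the threshold of that list.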
